A study of Canis lupus familiaris with 15 samples.

Results

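MHC class I presentation was followed here through 10 genes, DLA88, B2M, TAP1, TAP2, TAPBP, PSMB8, PSMB9, PSMB10, NLRC5 and CALR, in primary canine osteosarcomas, the most common malignant bone tumor of dogs. They are 10 of the 15115 genes named on the array, and every probeset that carried the symbol of 1 of these genes and no other was taken, which gave 23 of the 42860 probesets tested. DLA88 was chosen by its values in these tumors, because the probeset with its lower mean had passed a fold change and an unadjusted p between the cohorts. Its cohort difference is therefore given as a description with no test. The other 9 genes were chosen for their place in the pathway, but with earlier results of these data known.

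MHC class I molecules show fragments of a cell's own proteins to cytotoxic T cells. Proteasomes cut the proteins, a transporter in the membrane of the endoplasmic reticulum brings the peptides inside, and a group of chaperones loads them onto a heavy chain that is bound to beta-2 microglobulin. Interferon gamma raises many genes of the pathway together, and loss of class I molecules is a known way for tumor cells to escape T cells. DLA88 is the classical class I heavy chain gene of the dog and is highly polymorphic.

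RNA from the primary tumors of 15 dogs, taken at amputation before any chemotherapy, was hybridised to Affymetrix Canine 2.0 arrays, with a single array for each dog. The dogs fell into 2 cohorts by disease free interval (DFI), 8 dogs with DFI < 100 days and 7 dogs with DFI > 300 days. By the breed label, the DFI < 100 cohort held 3 dogs labelled Greyhound and single dogs labelled Mix, Rottweiler, Labrador Ret., Doberman and Golden Ret., at 4.4 to 10.8 years of age. The DFI > 300 cohort held 4 dogs labelled Mix and single dogs labelled Golden Ret., Rottweiler and Greyhound, at 7.1 to 13.4 years. All tissue was snap frozen, no tumor had an experimental treatment, and dogs are numbered within their cohort.

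Values are log2 of the intensity that the PLIER algorithm gave to each probeset. Median intensities on the linear scale ran from 46.6 to 54.7 over the 15 arrays. The signal without a target was read from 64 control probesets for reporter genes, whose 95th percentile, averaged over arrays, was 6.79 on the log2 scale (the reporter level), and 14518 probesets had a mean above it. Of the 23 member probesets, 17 did. Of 10 osteoblast and bone matrix markers measured, 7 had a mean above that level, among them the bone collagen gene COL1A1 at 13.08, SPARC at 13.34 and the osteoblast regulator RUNX2 at 8.33, whereas osteocalcin (BGLAP) at 5.94, PHEX at 4.72 and DMP1 at 5.22 did not. Whole tumor tissue was used, so fewer cells of a type and less RNA per cell cannot be told apart. The arrays were run in batches that could not be assigned here, and the part of batches in any difference was not tested.

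DLA88 carried 2 probesets, and they did not vary together. The probeset with the higher mean was bright in every tumor. In DFI < 100 dogs 1 to 8 it stood at 11.90, 12.44, 11.69, 10.26, 10.40, 10.43, 11.19 and 11.71. In DFI > 300 dogs 1 to 7 it stood at 11.95, 11.93, 11.49, 12.17, 11.88, 10.26 and 10.69. The cohorts overlapped, at 11.25 ± 0.81 (SD, n = 8) and 11.48 ± 0.73 (SD, n = 7), a difference of -0.23 with a standard error of 0.38. Both Rottweilers were the highest of their cohorts, and 5 tumors lay apart from the rest at 10.26 to 10.69, from a Greyhound, the Labrador Ret. and the Doberman of the DFI < 100 cohort and from a dog labelled Mix and the Greyhound of the DFI > 300 cohort.

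The probeset with the lower mean was either very bright or much dimmer. In DFI < 100 dogs 1 to 8 it stood at 12.89, 12.99, 12.49, 12.12, 12.31, 2.51, 12.52 and 13.17. In DFI > 300 dogs 1 to 7 it stood at 9.81, -7.64, 13.00, 7.25, 4.13, 3.57 and 8.77. Values above 12 were seen in 7 of 8 DFI < 100 tumors and in 1 of 7 DFI > 300 tumors, and the exceptions were the Doberman (DFI < 100 dog 6) and a dog labelled Mix (DFI > 300 dog 3). The cohort means were 11.38 ± 3.60 (SD, n = 8) and 5.55 ± 6.67 (SD, n = 7), and the ranges overlapped. These are the values that chose the gene: the means differed by 5.82 on the log2 scale (standard error 2.53), or 56.6-fold, while the probeset with the higher mean differed by 1.17-fold and in the opposite direction. Without DFI > 300 dog 2, whose value of -7.64 stands for a linear intensity of 0.00501, the difference was 3.62. With every value under the reporter level set to that level, an alternative chosen after seeing the data, it was 3.46.

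**Figure D1:**
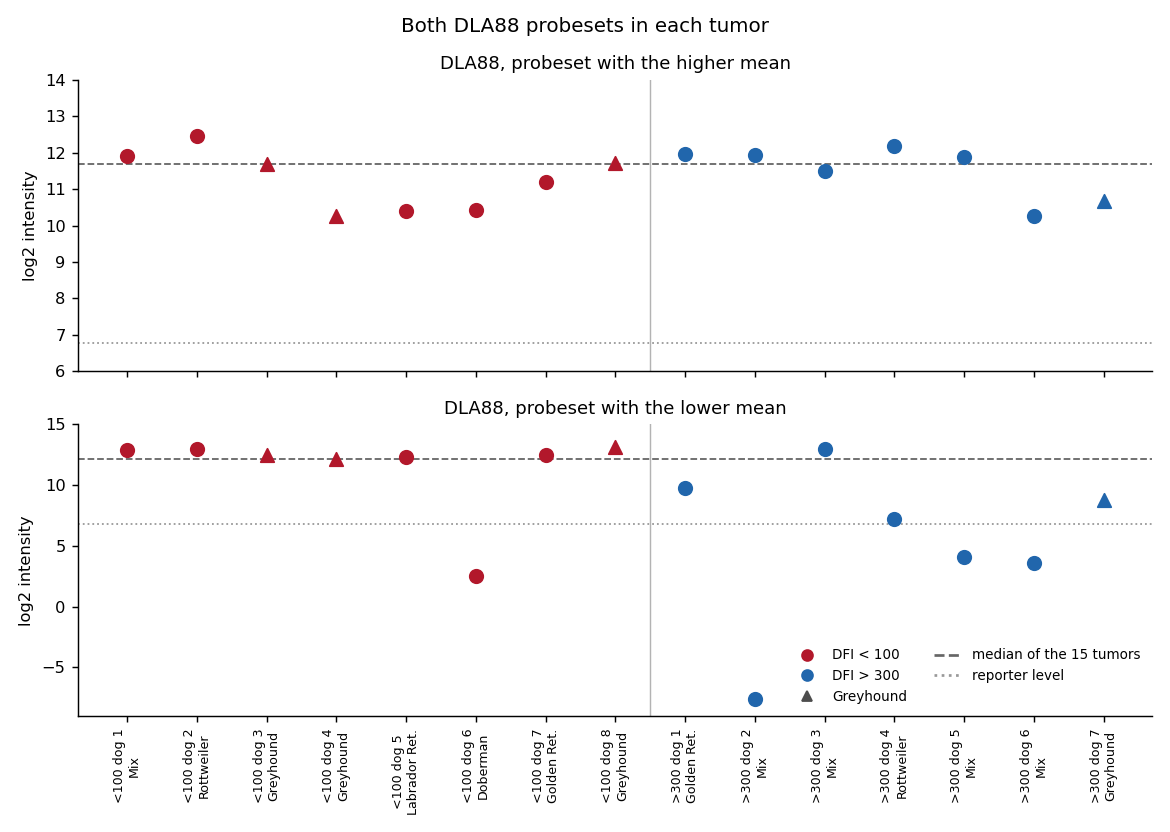
Log2 intensity of both DLA88 probesets (y axes, on different scales) in each of the 15 tumors (x axis), with DFI < 100 in red, DFI > 300 in blue and Greyhounds as triangles. The dashed line is the median of the probeset over the tumors and the dotted line the reporter level of 6.79. The probeset with the higher mean stayed between 10.26 and 12.44, while that with the lower mean was above 12 in 8 tumors and ran down to -7.64 in the others.

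The spread of the lower-mean probeset, an SD of 5.88 over the 15 tumors, ranked 1 of the 14518 probesets above the reporter level, whose median SD was 0.51. The SD of the higher-mean probeset was 0.76. Pearson's r between both was 0.02 over 15 tumors, 0.48 within the DFI < 100 cohort and -0.12 within the DFI > 300 cohort. Among the 3045 genes with at least 2 probesets above the reporter level, the median r between the brightest pair was 0.92 with quartiles of 0.81 and 0.96, and 1.81% of them had an r as low as that of DLA88. DFI > 300 dog 2 had the widest gap, with the higher-mean probeset 0.25 above its own median and the lower-mean probeset at -19.76 from its own. That value lay under the reporter level, where the size of a log2 difference bears little weight, and it enters the SD and r above. By rank, rho between both probesets was 0.15. Without DFI > 300 dog 2 and DFI < 100 dog 6, r was 0.15.

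Dogs with the same breed label could differ widely on the lower-mean probeset. Few dogs carried each label and the labels were spread unevenly over the cohorts, so breed and cohort cannot be told apart here. Of the dogs labelled Mix, the DFI < 100 dog stood at 12.89 and the DFI > 300 dogs at -7.64, 13.00, 4.13 and 3.57. The Rottweilers stood at 12.99 (DFI < 100) and 7.25 (DFI > 300). The dogs labelled Golden Ret. stood at 12.52 (DFI < 100) and 9.81 (DFI > 300). These are again the values that chose the gene, so they bear no weight for a cohort difference within breeds. The 4 Greyhounds stood at 12.49, 12.12, 13.17 and 8.77, of which the last was the DFI > 300 dog. All 4 were above the reporter level, as were 7 of the 11 other dogs. What sets the split was not tested. The suffix of the higher-mean probeset marks it as able to detect related genes, so its signal may include near-identical class I genes.

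Other class I heavy chain genes give a view of that. Of 2 probesets that carry both the DLA-64 and the DLA88 symbol, and are no members for that reason, the brighter followed the higher-mean DLA88 probeset with an r of 0.95, and the DLA-64 probeset did so with an r of 0.92. The first ran from 11.61 to 12.96 over the 15 tumors and the second from 5.00 to 8.56. With the lower-mean DLA88 probeset their r was -0.06 and -0.08. The dimmer probeset with both symbols ran from 4.56 to 9.88 and behaved otherwise, with an r of 0.61 with the higher-mean probeset that was -0.28 among the 10 tumors where that probeset was above 11. With the lower-mean probeset its r was 0.21 and its rho 0.58 (permutation p = 0.0258). DLA-79, a nonclassical class I gene, had 3 probesets whose r with the higher-mean probeset was 0.50, 0.80 and 0.69. Whether these probesets bind RNA of more than 1 class I gene was not tested.

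B2M, the light chain that every class I heavy chain needs, was the steadiest of the bright members, with an SD of 0.36 over the 15 tumors. Its brighter probeset had a lowest, median and highest value of 12.35, 12.92 and 13.27 in the DFI < 100 tumors and of 12.06, 12.92 and 13.32 in the DFI > 300 tumors. The cohorts overlapped fully, with a difference of 0.04 (standard error 0.20). The lowest tumors were the Greyhounds DFI > 300 dog 7 at 12.06 and DFI < 100 dog 4 at 12.35. The other B2M probeset followed it with an r of 0.99.

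The peptide transporter is built from TAP1 and TAP2. The brightest of 3 TAP1 probesets stood at 8.58, 9.57 and 10.44 (lowest, median and highest) in the DFI < 100 tumors and at 8.27, 10.02 and 11.07 in the DFI > 300 tumors. The highest tumor was the DFI > 300 Rottweiler (dog 4) and the lowest was DFI > 300 dog 6, labelled Mix, with DFI < 100 dog 4, a Greyhound, next to it. The brightest TAP2 probeset varied less, at 9.12, 9.38 and 9.95 against 8.58, 9.87 and 10.23, and its lowest tumor was again DFI > 300 dog 6. The Greyhound DFI > 300 dog 7 was the highest for TAP2 at 10.23 and among the lower tumors for TAP1 at 8.87. The TAP1 probesets followed each other with an r of 0.87 to 0.96, and the first pair of TAP2 probesets with an r of 0.89. The remaining TAP2 probeset, with a mean of 4.42 that lay under the reporter level, followed them with an r of 0.15 and 0.19.

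TAPBP (tapasin), which bridges the heavy chain and the transporter while the peptide is loaded, was dimmer and varied more. Its brighter probeset stood at 5.67, 6.87 and 9.18 in the DFI < 100 tumors and at 5.57, 7.12 and 8.56 in the DFI > 300 tumors, and was above the reporter level in 10 of 15 tumors. The lowest tumors, DFI > 300 dog 6 at 5.57, DFI < 100 dog 4 at 5.67, DFI < 100 dog 6 at 5.72 and DFI < 100 dog 5 at 5.98, were those with the lowest DLA88 signal on the higher-mean probeset. DFI < 100 dog 2, a Rottweiler, was the highest for both.

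PSMB8, PSMB9 and PSMB10 are the catalytic subunits that turn a proteasome into an immunoproteasome, which favors peptides that bind class I molecules. PSMB9 had 1 probeset, at 7.75, 9.57 and 10.44 in the DFI < 100 tumors and at 8.17, 9.58 and 10.95 in the DFI > 300 tumors. The brighter PSMB8 probeset stood at 6.68, 8.00 and 9.13 against 6.44, 7.37 and 9.76. The DFI > 300 Rottweiler (dog 4) was the highest tumor for both, and DFI < 100 dog 4 the lowest for PSMB9. The Rottweiler DFI < 100 dog 2 and DFI > 300 dog 5, labelled Mix, which had the highest TAPBP, were low for PSMB9 at 8.65 and 8.93 and for PSMB8 at 7.37 and 6.44. For PSMB10 the brighter probeset was at 6.90, 7.63 and 8.33 against 6.49, 7.43 and 8.80. The other PSMB10 probeset had a mean of 2.22, under the reporter level.

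NLRC5, the transactivator of class I genes, was under the reporter level in all 15 tumors on both its probesets, with means of 4.54 and 4.23 and ranges of 4.08 to 5.21 and 3.75 to 4.77. Its values therefore bear little weight in any comparison here.

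CALR encodes calreticulin, a chaperone of the loading complex that binds many other glycoproteins as well. It had 4 probesets, all bright, and that with the highest mean went against the other 3. It stood at 11.13, 10.97, 8.66, 10.71, 10.90, 7.92, 10.88 and 10.84 in DFI < 100 dogs 1 to 8. In DFI > 300 dogs 1 to 7 it stood at 10.59, 10.29, 8.06, 10.74, 8.34, 7.96 and 10.81. Thus 5 tumors lay between 7.92 and 8.66 and the other 10 between 10.29 and 11.13. Its r with the other CALR probesets was -0.69, -0.57 and -0.54, while those had an r of 0.73 to 0.96 among themselves, and 0.0328% of genes with at least 2 bright probesets had an r as low as -0.69. In the 5 dim tumors the CALR probeset with the second highest mean stood at 10.33, 10.61, 10.19, 10.37 and 10.02, and among the other tumors it exceeded 10 in DFI < 100 dog 2 alone, at 10.63. Both cohorts held dim and bright tumors, and what sets the split was not tested.

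**Figure D2:**
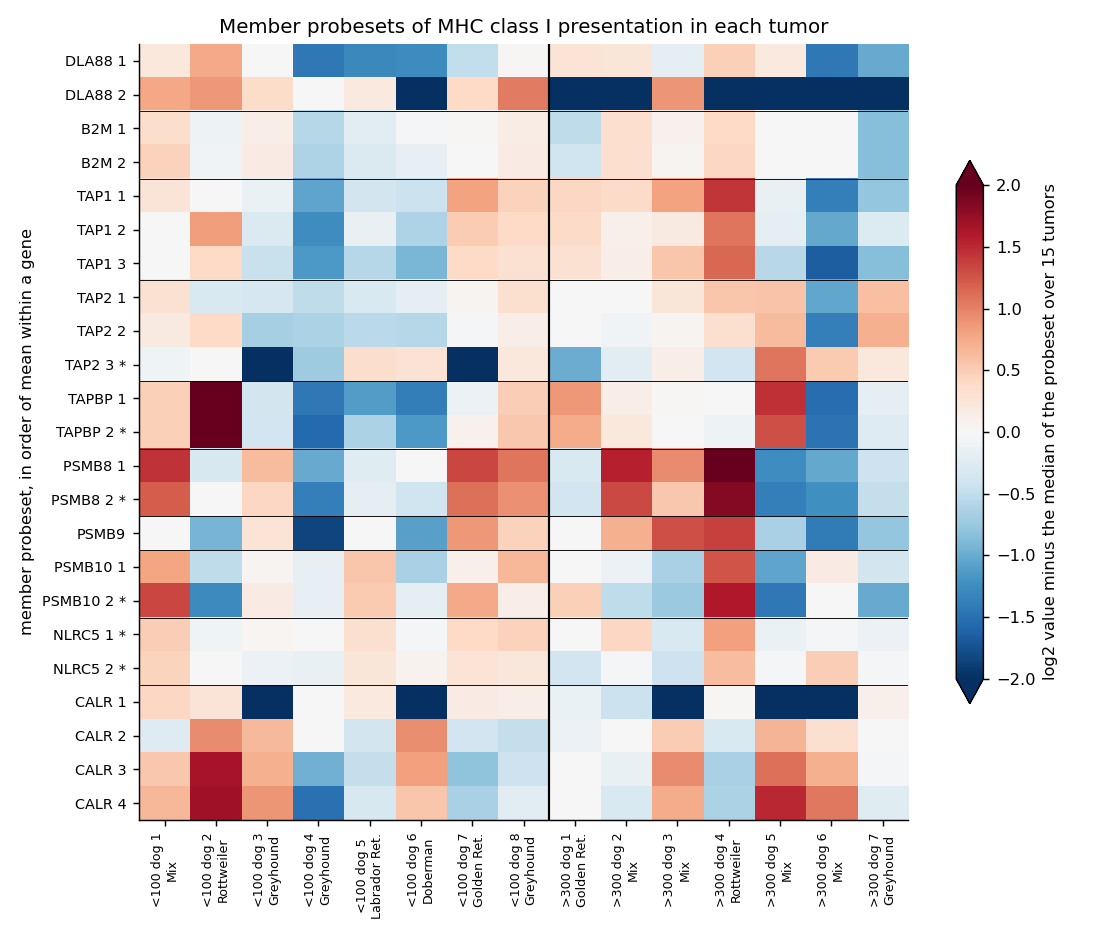
Each row is a member probeset, numbered within a gene by its mean, and each column a tumor, with the cohorts parted by the black line. Color gives the log2 value minus the probeset's own median over the 15 tumors, cut at 2 in both directions, and an asterisk marks probesets with a mean under the reporter level. DFI < 100 dog 4 and DFI > 300 dog 6 are blue in most rows from DLA88 to PSMB9, and the first CALR row runs against the other 3.

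Read tumor by tumor, 11 probesets of B2M, TAP1, TAP2, TAPBP and the immunoproteasome genes had a mean above the reporter level. All 11 lay under their own medians in DFI < 100 dog 4, and 10 lay under and 0 above in DFI < 100 dog 6. In DFI < 100 dog 8, a Greyhound, all 11 lay above their own medians. In DFI > 300 dogs 3 and 4, 10 of the 11 lay above. DFI < 100 dog 8 and DFI > 300 dog 3 also had the highest values of the lower-mean DLA88 probeset, at 13.17 and 13.00, but DFI > 300 dog 4 had 7.25 and DFI < 100 dog 4, with all 11 low, had 12.12.

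The first comparison asked whether the pathway differed between dogs with a short and a long DFI. Leaving out DLA88, 9 of 21 member probesets were higher and 12 lower in the DFI < 100 tumors, with a median difference of -0.11 on the log2 scale and a range of -0.64 to 0.71. None reached an unadjusted p of 0.05 in limma, where the lowest p of the 21 was 0.193 and the adjusted p was 0.999. Over all 42860 probesets, 0 (0%) had an adjusted p under 0.05 in limma and 0 in the methods' t-test, while 1578 (3.68%) and 1567 had an unadjusted p under 0.05. The largest differences in size belonged to the first CALR probeset, 0.71 (standard error 0.63) with means of 10.25 ± 1.23 (SD, n = 8) and 9.54 ± 1.35 (SD, n = 7), and to the dim TAP2 probeset, -0.64 (standard error 0.47). Of the brightest probesets, TAP1 differed by -0.17 (standard error 0.38), TAPBP by -0.28 (standard error 0.53) and PSMB9 by -0.36 (standard error 0.49). With 8 and 7 tumors, differences as large as these standard errors could not be resolved. All 23 member probesets overlapped between the cohorts, where 0.0187% of all probesets did not.

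The second comparison set the 4 Greyhounds against the 11 other dogs, since Greyhound was the label with the most dogs besides Mix and lay in both cohorts. The cohort was a covariate because the Greyhounds were split unequally, with 3 in the DFI < 100 cohort and 1 in the DFI > 300 cohort. Greyhound tumors were lower on 19 of 23 member probesets and higher on 4, with a median difference of -0.37, beside a median over all probesets of -0.03. None of the 23 had an unadjusted p under 0.05 in limma, where 0 (0%) of all probesets passed the adjusted p and 2030 (4.74%) the unadjusted. B2M stood at 12.06, 12.35, 13.05 and 13.07 in the Greyhounds and at 12.42, 12.92 and 13.32 (lowest, median and highest) in the other dogs. The difference of -0.36 (standard error 0.22) gave the lowest p of the members, 0.125, with an adjusted p of 0.968 in limma. For TAP1 the Greyhounds stood at 8.58, 8.87, 9.51 and 10.10 and the others at 8.27, 9.90 and 11.07, a difference of -0.53 (standard error 0.44). In both genes the lower 2 Greyhounds were DFI < 100 dog 4 and DFI > 300 dog 7, while DFI < 100 dogs 3 and 8 lay within the range of the other dogs. With a single dog left out, the B2M difference ran from -0.48 to -0.10, the last without DFI > 300 dog 7, the one Greyhound of its cohort, and without that dog the TAP1 difference was -0.30. DLA88 differed by -0.33 (standard error 0.45) on the higher-mean probeset (-0.05 without DFI > 300 dog 7) and by 2.51 (standard error 2.98) on the lower-mean probeset. All 23 probesets overlapped between the breeds, where 0.091% of all probesets did not.

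**Figure D3:**
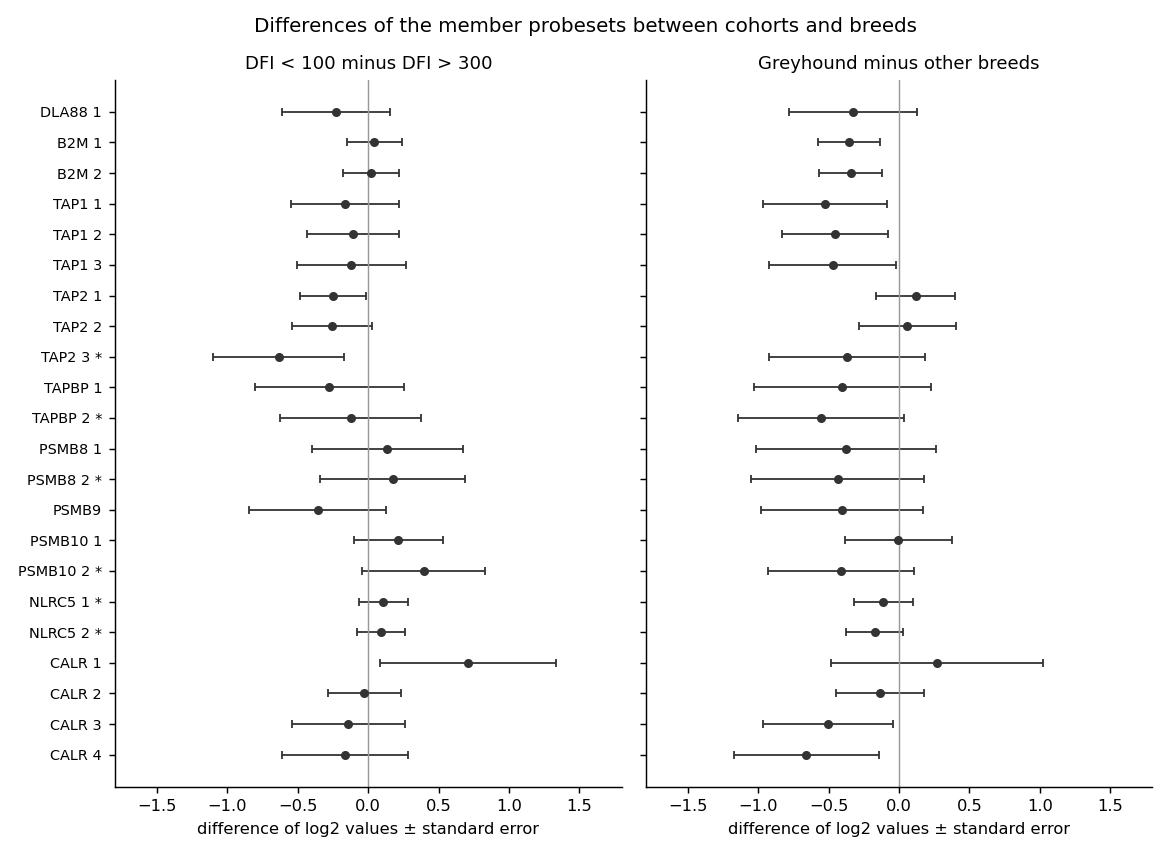
Difference of log2 values (x axes) with bars of 1 standard error from limma for 22 member probesets (y axis), DFI < 100 minus DFI > 300 on the left and Greyhound minus other breeds with the cohort as a covariate on the right. The lower-mean DLA88 probeset is left out because its difference of 5.82 lies off the scale, and an asterisk marks a mean under the reporter level. Cohort differences fall on both sides of 0, with a median of -0.11 without DLA88, and breed differences fall mostly under 0.

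The third comparison asked which members rose and fell with DLA88 from tumor to tumor. Each of the 22 other member probesets was set against the higher-mean DLA88 probeset over the 15 tumors, and 20 of the 22 had an r above 0. An unadjusted p under 0.05 in limma was reached by 9, all with a positive r, where 4.3% of all probesets did so and 7.17% in either direction. The 9 were both TAPBP probesets, 3 of TAP1, and single probesets of TAP2, B2M, PSMB8 and PSMB9. The count thus holds several probesets of the same gene, and those of TAP2, B2M and PSMB8 were not the brightest of their gene. The dimmer TAPBP probeset and the PSMB8 probeset had means under the reporter level, at 5.96 and 6.66. On the brightest probeset of each gene, 3 of 9 genes passed that threshold (TAP1, TAPBP and PSMB9), beside 4.07% of all named genes with a positive r. After adjustment over 42859 probesets, 8 (0.0187%) were called, and the brighter TAPBP probeset was the member among them. Of the 8, 5 had a mean under the reporter level.

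TAPBP had an r of 0.87 (permutation p = 1e-05, the smallest that 100000 permutations can give) and a Spearman rho of 0.85 (permutation p = 0.00016), with an adjusted p of 0.0478 in limma. Its r ranked 7 of 42859. Without DFI > 300 dog 6 and DFI < 100 dog 4, the tumors farthest from the DLA88 median, r was 0.81, and it was 0.94 within the DFI < 100 cohort and 0.76 within the DFI > 300 cohort. The call was not firm, since it was kept in 3 of the 15 fits that left out a single dog. The brightest TAP1 probeset had an r of 0.72 (permutation p = 0.00284) and a rho of 0.65 (permutation p = 0.00994), with an adjusted p of 0.483 in limma, an r of 0.55 without the same tumors, and an r of 0.60 and 0.86 within the cohorts.

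The brighter B2M probeset had an r of 0.49 (permutation p = 0.0638) and a rho of 0.42 (permutation p = 0.125), with an adjusted p of 0.712 in limma. Without the same 2 tumors its r was 0.45. PSMB9 had an r of 0.54 (permutation p = 0.0398) and a rho of 0.49 (permutation p = 0.0685), with an adjusted p of 0.690 in limma, and its r fell to 0.27 without those tumors. The brightest TAP2 probeset had an r of 0.49 (permutation p = 0.0646) that fell to 0.15 and the brighter PSMB8 probeset 0.48 (permutation p = 0.0708) that fell to 0.27. PSMB10 had an r of 0.11, NLRC5 0.27 and the first CALR probeset 0.25.

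Because 5 tumors lay apart at low DLA88 values, r was also taken over the other 10, which ran from 11.19 to 12.44. Among them it was 0.64 for TAPBP, -0.02 for B2M, -0.49 for PSMB9 and -0.23 for PSMB8. For TAP1 it was -0.17 on the brightest probeset and 0.38 and 0.15 on the others. The r of TAP1, B2M, PSMB9 and PSMB8 with DLA88 was thus much lower without the 5 low tumors, and that of TAPBP fell less. Leaving them out also narrows the DLA88 range, which by itself can lower r. Whether the relations rest on the low tumors was therefore not tested. The DLA-64 probeset kept an r of 0.73 among the other 10.

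**Figure D4:**
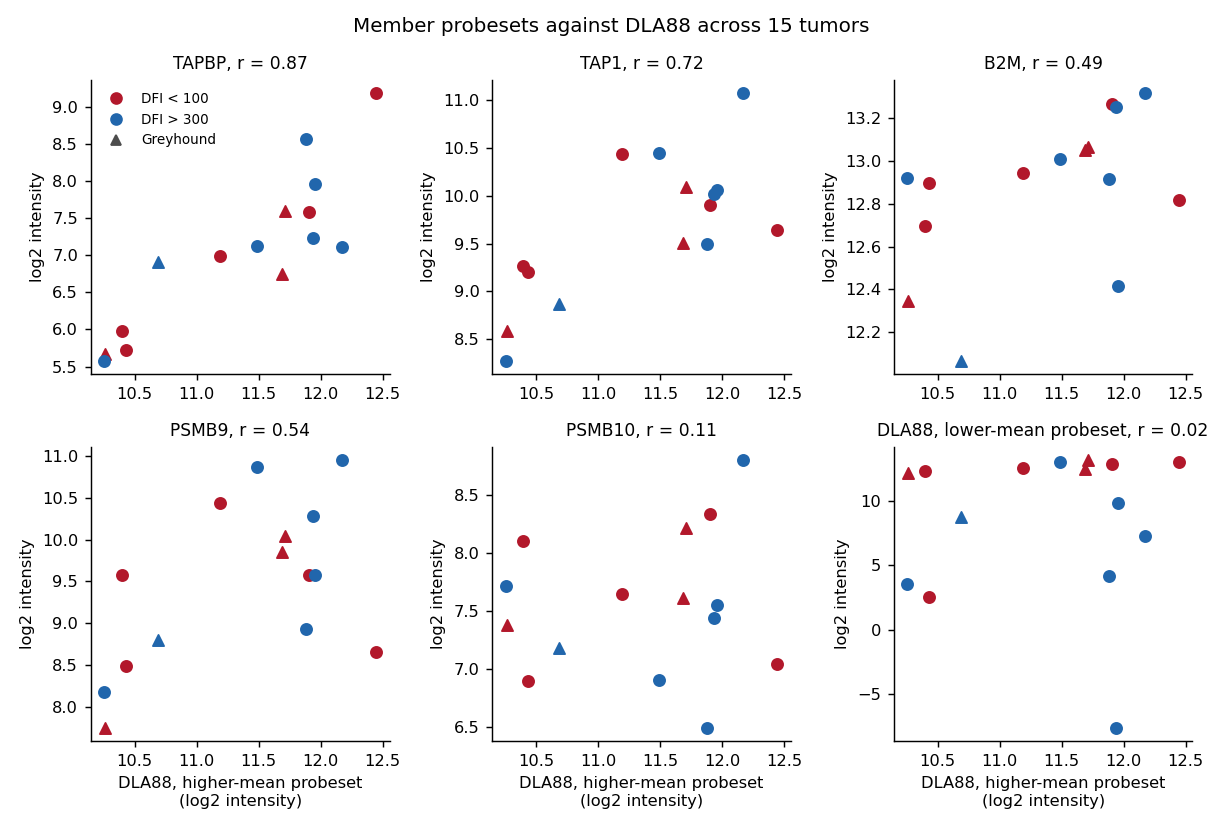
Log2 intensity of 6 member probesets (y axes) against the higher-mean DLA88 probeset (x axes) in 15 tumors, with DFI < 100 in red, DFI > 300 in blue and Greyhounds as triangles; r is Pearson's r over all 15. TAPBP has an r of 0.87 over all 15 tumors and of 0.64 over the 10 above 11 on the x axis. For TAP1 these are 0.72 and -0.17, and the lower-mean DLA88 probeset has an r of 0.02 over all 15.

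With the lower-mean DLA88 probeset, 13 of 22 member probesets had an r above 0 and none an unadjusted p under 0.05 in limma. The r ran from -0.31 to 0.32. By rank, 18 of the 22 had a Spearman rho above 0. For the first CALR probeset, r was 0.32 and rho 0.56 (permutation p = 0.0326, not adjusted over the 22). Its r was 0.78 within the DFI < 100 cohort and -0.10 within the DFI > 300 cohort. The remaining CALR probesets did not share this, with a rho of -0.26, -0.0071 and 0.089. Within the DFI < 100 cohort their r was -0.52, -0.25 and -0.11. The brightest TAP1 probeset had an r of 0.11 and a rho of 0.42 (permutation p = 0.121), and the brighter TAPBP probeset an r of 0.13 and a rho of 0.34 (permutation p = 0.22).

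A further comparison, added after seeing the data, set the members against the brightest TAP1 probeset. An r above 0 was seen for 18 of 22, and 11 had an unadjusted p under 0.05 in limma with a positive r, where 3.43% of all probesets did so. Both counts include the other probesets of TAP1 itself, with an r of 0.87 and 0.96. Their likeness is no result about the other members. Of the 3 probesets (0.007%) called after adjustment, 2 were members, another TAP1 probeset and PSMB9. PSMB9 followed TAP1 with an r of 0.90 (permutation p = 1e-05) and a rho of 0.92 (permutation p = 1e-05), with an adjusted p of 0.0318 in limma and an r of 0.87 without the 2 tumors farthest from the TAP1 median. PSMB8 had an r of 0.81 and 0.83 on its probesets, B2M 0.56 and 0.58, and TAPBP 0.48 and 0.49. TAP2 had an r of 0.60, 0.51 and -0.28, the last on its probeset with a mean under the reporter level. Without the 2 tumors farthest from the TAP1 median, the first pair of TAP2 values fell to 0.28 and 0.21. In the RefSeq annotation of the dog assembly UU_Cfam_GSD_1.0, used for gene order alone, TAP2, PSMB8, TAP1 and PSMB9 are consecutive coding genes, and DLA88, DLA-64 and TAPBP lie on the same chromosome, while B2M, NLRC5, CALR, PSMB10 and DLA-79 lie elsewhere.

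Beside the members, 28 further genes of class I presentation were measured. Of these, 0 passed the adjusted p and 0 the unadjusted in limma between the cohorts, with a median difference of -0.07 beside 0.02 over all named genes. In the Greyhounds 2 of 28 were lower with an unadjusted p under 0.05 in limma, beside 381 of all 15115 named genes. They were the peptide-trimming enzyme ERAP1 at -1.36 (standard error 0.32) and TAPBPL, a relative of tapasin, at -0.68 (standard error 0.31). Both had an adjusted p of 0.968 in limma, and TAPBPL had a mean under the reporter level. With the higher-mean DLA88 probeset, 6 of 28 had a positive r and 2 a negative r with an unadjusted p under 0.05, and DLA-64 passed the adjusted p. Of all named genes, 4.07% had a positive r at that threshold. The positive 6 were DLA-64, DLA-79, IRF1, PSME1, TAPBPL and RELA, and the negative 2 were the aminopeptidases ERAP2 at -0.54 and LNPEP at -0.55. Of these, DLA-64, TAPBPL, RELA, ERAP2 and LNPEP had a mean under the reporter level, at 6.68, 5.08, 5.46, 5.98 and 5.16. IRF1, a transcription factor induced by interferon gamma, had an r of 0.82, and a dimmer IRF1 probeset with an r of 0.90 and a mean of 5.15, under the reporter level, was among the 8 called. Among chaperones of the endoplasmic reticulum, PDIA3 had an r of -0.15, HSPA5 -0.37 and HSP90B1 -0.43. The constitutive subunits PSMB5 and PSMB6, which the immunoproteasome subunits replace, had an r of 0.10 and -0.13.

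The genes most like the higher-mean DLA88 probeset were taken as the 10 with the highest r, 1 probeset for each named gene, with a mean above the reporter level. They were TAPBP at 0.87, the complement gene C2 at 0.85, IRF1 at 0.82, PCGF6 at 0.82, NT5DC1 at 0.80, the chemokine CXCL16 at 0.79, MAX, ZFP36L1 and AP1G2 at 0.77 and glutamine synthetase (GLUL) at 0.75. Besides TAPBP, none of the 10 passed the adjusted p in limma on these probesets. The 5 lowest were UBFD1 at -0.89, GPSM2 at -0.88, SLC25A17 at -0.82, MED7 at -0.81 and SEC22B at -0.80, of which UBFD1 had an adjusted p of 0.0478. Of the 8 called, 6 were positive, and those not yet named were LRP10 and 2 probesets with no gene name, all under the reporter level.

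Genes of the interferon response leaned the same way. All 26 of those measured had an r above 0 with the higher-mean DLA88 probeset, as did 54.5% of all named genes. Their median r was 0.43, beside 0.04 over all named genes. A positive r with an unadjusted p under 0.05 in limma was reached by 9, beside 4.07% of all named genes. Among the 9 were OAS2 at 0.66 and IRF9 at 0.64, which act in antiviral defense and in interferon signalling. On the brightest probeset of each gene, none of the 26 passed the adjusted p. With TAP1, 13 of 26 had a positive r at that threshold, beside 3.53% of all named genes. Between the cohorts 0 of 26 had an unadjusted p under 0.05. In the Greyhounds SOCS1, an inhibitor of interferon signalling, differed by -1.46 (standard error 0.47). It was the single gene of the 26 with an unadjusted p under 0.05, where 381 of all 15115 named genes were lower at that threshold.

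Markers of immune cells varied as well, and their part in these relations was not tested. All 14 macrophage markers had an r above 0 with the higher-mean DLA88 probeset, 2 with an unadjusted p under 0.05 in limma, CSF1R at 0.64 and LYZ at 0.55, and 7 of 14 had a positive r with TAP1 at that threshold. Their mean log2 level over the list ran from 7.16 to 8.97 in the DFI < 100 tumors and from 6.77 to 10.45 in the DFI > 300 tumors, and 12 of the 14 had a mean above the reporter level. Of 10 MHC class II genes, which are expressed by macrophages, B cells and dendritic cells, 1 had a positive r with DLA88 and 7 with TAP1 at that threshold, and the list ran from 7.44 to 9.17 and from 6.91 to 9.58 in the cohorts. CIITA, the class II transactivator, had an r of -0.63 with DLA88. An r above 0 with the higher-mean DLA88 probeset was not particular to macrophage markers. It was seen for 9 of 10 MHC class II genes, 17 of 19 T and NK cell markers and 7 of 8 endothelial markers. For B and plasma cell markers it was 4 of 6, for osteoblast and bone matrix markers 7 of 10, and for all named genes 54.5%.

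Of 19 T and NK cell markers, 2 had a mean above the reporter level, PTPRC and NKG7, and CD3D, CD3E, CD3G, CD8A, CD8B, GZMA, GZMB and PRF1 were under it. None had an unadjusted p under 0.05 with DLA88 and 3 did with TAP1, and their mean level ran from 3.80 to 5.29 and from 3.60 to 6.55 in the cohorts. Of 6 B and plasma cell markers 1 was above the reporter level, JCHAIN, and 0 had an unadjusted p under 0.05 with either gene, with a mean level from 2.93 to 4.88 and from 4.13 to 4.93. For 8 endothelial markers it was 0 with either gene, 4 were above the reporter level, and the list ran from 6.44 to 8.55 and from 6.25 to 7.57. Of the 10 osteoblast and bone matrix markers, 1 had a positive r with DLA88 at that threshold, SPP1 (osteopontin) at 0.53, and the list ran from 8.71 to 10.91 and from 9.14 to 10.30. Over all these lists 0 genes passed the adjusted p in limma between the cohorts or breeds. At the unadjusted p, PRF1, NCR1 and BLK were higher and CD8B lower in the DFI < 100 tumors, all with a mean under the reporter level. Of all 15115 named genes, 293 were higher and 247 lower there at that threshold. In the Greyhounds CLDN5 of the endothelial list was lower at the unadjusted p, where 303 of all named genes were higher and 381 lower.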

How the data were processed

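RNA was extracted by the authors from snap frozen tumors, selected by integrity and hybridised in batches to the arrays, 1 per dog, and 1 sample was removed after review by a pathologist. PLIER in Affymetrix Expression Console, per the labels, gave the deposited values, which are intensities on the linear scale for 43035 probesets; for versions and the normalization before PLIER the sources used here give nothing. An array gives no read depth, so precision is limited by how many arrays there are. The RMA values and qRT-PCR data were not analysed here.

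Controls (175) were left out and log2 was taken with no offset, so differences at low intensities are large. Of 42860 probesets, 29254 carried 1 gene symbol in the platform annotation, 439 several and 13167 none. In the lists, each gene is represented by its brightest probeset on average. Cohorts, Greyhounds (with the cohort as a covariate) and the slope on the centred higher-mean DLA88 probeset were fitted with limma 3.58.1 in R 4.3.3, with p adjusted by Benjamini-Hochberg over all probesets. Permutation tests of r and rho were 2-sided with 100000 resamples, over 22 member probesets each. In each group every sample is the tumor of another dog. The members and the lists (other class I pathway genes, constitutive proteasome, interferon response, MHC class II and cell type markers) were chosen with earlier results of these data known. Named in the text are all member probesets, genes of the lists, and the 10 highest and 5 lowest genes by r with DLA88 among probesets above the reporter level.

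Alternatives were 16 added before log2, quantile normalization, only probesets above the reporter level, age as a covariate, array weights, each dog left out, the methods' t-test, no Greyhounds, Greyhound or cohort as a covariate or none, each cohort alone, the other DLA88 probeset and Spearman's rho. Setting values under the reporter level to it and the comparison with TAP1 were added after seeing the data. So was the r over the 10 tumors with the higher-mean DLA88 probeset above 11. The fits were tested on simulated data.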

Additional observations from a re-analysis of the deposited data

Results flagged for a closer look

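Of 69 groups of samples checked for a single value far from the rest, which are the 23 member probesets in each cohort and in the Greyhounds, 4 (5.8%) held such a value, and chance alone gives about 1 in 20. The Doberman (DFI < 100 dog 6) stood at 2.51 on the lower-mean DLA88 probeset, with the nearest DFI < 100 tumor at 12.12. DFI > 300 dog 6, labelled Mix, stood at 8.58 and 6.17 on the brighter TAP2 probesets, with the nearest DFI > 300 tumors at 9.61 and 7.47. The Greyhound DFI < 100 dog 3 stood at 8.66 on the first CALR probeset, with the nearest Greyhound at 10.71. What sets these values apart was not tested.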

How the results depend on the processing

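Of 843 values over 35 results and their alternatives, 761 kept the direction and side of the threshold or, for a count of calls, stayed within 1.5 times of it, 39 reversed, 22 counts moved and 21 lost a call. Between the cohorts, 2 probesets were called without the Greyhounds and 0 with any single dog left out. Between the breeds, 4 were called within the DFI < 100 cohort and 0 to 2 with a dog left out. For likeness to DLA88, the 8 calls became 3 with age, 5 with array weights, 0 within each cohort and by rho, 1 with the lower-mean probeset, 1 with values at least the reporter level, and 0 to 8 with a dog left out (0 without DFI < 100 dog 1, DFI < 100 dog 4 or DFI > 300 dog 6). The TAPBP call was lost in 9 of 11 settings other than leaving out a dog, with r from 0.13 to 0.94.

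The r between the DLA88 probesets was -0.044 with age, -0.020 with array weights, -0.12 within the DFI > 300 cohort and -0.082 to 0.30 with a dog left out. With the lower-mean probeset, r was -0.23 for B2M, -0.012 for PSMB8 and -0.076 for NLRC5, and against the higher-mean probeset it ran from -0.064 to 0.24 for PSMB10 with a dog left out. The cohort difference was -0.049 for B2M without the Greyhounds; with a dog left out it ran from -0.087 to 0.12 for B2M, from -0.41 to 0.055 for TAP1 and from -0.11 to 0.44 for PSMB8. The breed difference was -0.082 for TAP2, 0.13 for PSMB10 and -0.29 for CALR within the DFI < 100 cohort, 0.040 for PSMB10 and -0.076 for CALR with age, and 0.060 for PSMB10 without the cohort covariate; with a dog left out it ran from -0.082 to 0.26 for TAP2, -0.72 to 0.0013 for PSMB9, -0.18 to 0.13 for PSMB10 and -0.29 to 0.82 for CALR. The causes were not tested. No paired analysis was possible because every sample is the tumor of another dog. NLRC5 and other probesets under the reporter level carry little signal over background, and the NLRC5 differences could not be fitted where such probesets or values were removed.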
